A study of Mus musculus with 4 samples.

Results

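Stress-gene-high naive-like B cells of mouse Peyer's patches, the cells given cluster number 1 in the deposited cell table, carried high levels of heat shock and immediate-early transcripts together with follicular B cell markers at nearly the level of the naive-like cluster 0. The members were chosen by that cluster number alone and found by library and barcode in the count matrices: 6773 of the 22569 cells in the table, of which SFB-negative replicates 1 and 2 gave 1091 and 1845, and SFB-positive replicates 1 and 2 gave 1134 and 2703. The study sorted CD45+ immune cells from Peyer's patches of wild-type female Taconic mice without (SFB-negative) or with (SFB-positive) segmented filamentous bacteria, gut commensals that attach to the epithelium of the small intestine. Each group had 2 libraries, made with the 10x Genomics 3′ v3.1 kit from cells pooled over 5 mice, and their age is not given in the sources used here. All 4 libraries shared the wild-type genotype, the sex, the supplier, a 10 min EDTA step and a 30 min digestion with Liberase TL and DNase I, both at 37 °C. The labels do not say whether replicates 1 and 2 came from separate pools of mice, so every p-value below measures only the spread between libraries, which may be technical.

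The replicate numbers coincided with a processing batch. The file headers name Cell Ranger 6.0.0 for both replicate 1 libraries, which also carried 15 antibody tags, and Cell Ranger 7.0.0 for both replicate 2 libraries. Cluster 1 cells held a median of 1224 UMIs (unique molecular identifiers, counts of single RNA molecules) and 1182 in the SFB-negative and SFB-positive libraries of replicate 1, and of 3202 and 5282 in those of replicate 2. The cluster's summed counts ran from 1530600 to 16657749 UMIs per library. Levels are therefore given as UMIs per 1000000 UMIs of the cluster (CPM) in each library, and shares of cells after thinning every cell to 1000 UMIs. Barcodes were shared by 30 cells between the replicate 1 libraries and by 40 between the replicate 2 libraries, with 1 barcode of each set in cluster 1 of both libraries.

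Heat shock proteins are chaperones that hold or refold unfolded proteins, and their genes are induced by heat shock factor 1, which binds inverted repeats of GAA called heat shock elements. Immediate-early genes such as Jun and Fos encode transcription factors that cells switch on within minutes of a stimulus, without new protein synthesis. Naive follicular B cells are resting, recirculating cells that carry IgM and IgD and await antigen. Their quiescence and homing depend on KLF2, and their position between follicle and T cell zone on the oxysterol receptor GPR183 (EBI2).

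Promoters of 4 leading genes and of Hspe1 are shown first because the cluster takes its name from genes of the heat shock response. Hspe1 is a listed heat shock gene that was not among the leading genes and is shown for the promoter it shares with Hspd1, which led against cluster 0. Each run is the 250 bases before the annotated start, taken from RefSeq on GRCm38.p6 and written 5′ to 3′ on the gene's strand, in lower case, with capitals marking matches to the heat shock element searched (GAANNTTC or TTCNNGAA, each its own reverse complement, overlapping matches counted separately). Hspa1a, the inducible HSP70 gene, lies at chr17:34972157-34972406 (minus strand). Hspb1, the small heat shock protein HSP27, lies at chr5:135887669-135887918 (plus strand). Hspe1, the mitochondrial co-chaperonin, lies at chr1:55087898-55088147 (plus strand) and faces Hspd1 across a shared promoter. Jun lies at chr4:95052223-95052472 (minus strand) and Wfdc17, a gene of the whey acidic protein family, at chr11:83703806-83704055 (plus strand).

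Hspa1a: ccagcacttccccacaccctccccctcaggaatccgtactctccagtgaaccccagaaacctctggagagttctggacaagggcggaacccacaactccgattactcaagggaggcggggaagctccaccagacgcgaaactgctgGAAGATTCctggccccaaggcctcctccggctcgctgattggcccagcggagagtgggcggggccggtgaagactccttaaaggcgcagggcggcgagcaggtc
Hspb1: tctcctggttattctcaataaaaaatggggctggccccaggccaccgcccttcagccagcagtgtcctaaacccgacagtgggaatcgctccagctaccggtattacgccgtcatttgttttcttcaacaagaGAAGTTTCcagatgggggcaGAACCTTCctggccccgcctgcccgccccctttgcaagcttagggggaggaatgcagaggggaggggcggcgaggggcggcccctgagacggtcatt
Hspe1: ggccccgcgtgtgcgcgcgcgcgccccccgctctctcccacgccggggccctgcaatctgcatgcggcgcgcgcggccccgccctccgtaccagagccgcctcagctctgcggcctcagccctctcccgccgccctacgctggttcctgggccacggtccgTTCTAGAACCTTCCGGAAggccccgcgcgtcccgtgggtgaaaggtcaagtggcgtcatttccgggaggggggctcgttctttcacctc
Jun: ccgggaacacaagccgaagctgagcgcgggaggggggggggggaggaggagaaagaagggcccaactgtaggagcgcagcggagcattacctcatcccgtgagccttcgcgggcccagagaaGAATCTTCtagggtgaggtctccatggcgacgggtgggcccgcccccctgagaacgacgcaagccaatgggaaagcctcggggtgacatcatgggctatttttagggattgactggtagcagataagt
Wfdc17: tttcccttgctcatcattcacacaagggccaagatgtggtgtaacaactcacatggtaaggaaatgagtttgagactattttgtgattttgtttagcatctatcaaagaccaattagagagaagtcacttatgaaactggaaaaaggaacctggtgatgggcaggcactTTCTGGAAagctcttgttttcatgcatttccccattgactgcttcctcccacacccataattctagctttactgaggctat

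The Hspa1a run held 1 match, starting 104 bases before the start, and the run of its near-copy Hspa1b held the same match at the same distance, the 250 bases of both genes being identical at 247 positions. Hspb1 held 2 matches. Hspe1 held 3 overlapping matches, at chr1:55088059-55088076, and these bases also gave the 3 matches in 1 of the 2 promoters of Hspd1. Over the whole window of 250 bases before to 50 after the start, 15.1% of all 32851 RefSeq promoters held a match and 1.96% held 2 or more. Of the 16 listed heat shock genes, 12 had a promoter in the table and 9 of these held a match in at least 1 promoter, against 17.0% of all 27025 gene symbols. Of the 25 genes that led the cluster, 21 had a promoter there and 7 held a match: Hspa1a, Hspa1b, Dnaja1, Hsph1, Hspb1, Jun and Wfdc17. No match was found for Dnajb1, Klf2, Klf4, Klf6, Fos, Fosb, Atf3 or Gpr183 in these windows. For each window of Dnajb1 and for Klf4, the bases after the start did not open a transcript of the gene in the GENCODE annotation. These windows may therefore miss the promoter in use, and the lack of a match there is uncertain. The windows of Dnaja1 and Bag3 that held a match failed the same check. The AP-1 site TGACTCA, to which FOS and JUN bind, was searched on both strands. It was found for 5.95% of all gene symbols and for none of the 21 genes. The cAMP response element TGACGTCA, also searched, was found for 2.03% of all gene symbols and for 2 of the 21 genes. Only exact matches were counted. These matches describe sequence only.

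Among the genes of at least 20 CPM in the cluster, Hspa1a stood farthest above the other cells of the table, and Hspa1b, Jun, Dnajb1, Atf3, Wfdc17, Hsph1, Hspb1, Klf2 and Klf4 followed it in that order. The next were Dnaja1, Fos, Pmaip1, Hsp90aa1, Fosb, Oasl1, Gm26532, Fam46a, Plk2, Klf6, Gpr183, Pxdc1, Dusp1, Sox4 and 1700030K09Rik. The authors' clustering used these same cells, so the differences between clusters are descriptions without a test. Of 5641 genes of that level, 25.5% were higher in cluster 1 than in the other table cells in all 4 libraries, and 18.3% were higher than in cluster 0, the larger naive-like cluster of the table.

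Hspa1a (chr17:34969190-34972156, minus strand, GRCm38) reached 2664 and 530 CPM in replicates 1 and 2 without the commensal (SFB-negative), and 2801 and 2098 CPM in replicates 1 and 2 with it (SFB-positive). Cluster 0 cells of the same libraries held 75.6, 13.3, 203 and 48.0 CPM, so that the groups of values did not overlap and the mean log2 difference was 4.89 (SD 0.75, n = 4 libraries). SFB-negative replicate 2 was the lowest of the 4 in both clusters. Hspa1b, whose product is nearly the same protein, stood at 83.6, 225, 79.4 and 747 CPM in the same order of libraries. Its level was 3.14% and 2.84% of that of Hspa1a in the replicate 1 libraries and 42.4% and 35.6% in the replicate 2 libraries, so the split of reads between these near-copies differed with the batch and is uncertain.

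The co-chaperone gene Dnajb1 (HSP40), which delivers clients to HSP70, was at 559, 249, 763 and 613 CPM in cluster 1 against 112, 33.9, 141 and 53.7 CPM in cluster 0, with libraries in the order SFB-negative replicates 1 and 2, then SFB-positive replicates 1 and 2, as in all lists of 4 values below. Every cluster 1 library lay above every cluster 0 library. Jun, the AP-1 subunit, was at 357, 453, 561 and 1206 CPM against 54.6, 40.9, 110 and 81.6 CPM, also without overlap. Klf2, the zinc finger factor of quiescence and homing, was at 2091, 1125, 2412 and 1874 CPM against 1211, 431, 1206 and 509 CPM. For Klf2 the ranges touched, since SFB-negative replicate 2 of cluster 1 lay below the replicate 1 libraries of cluster 0, but within each library cluster 1 was the higher. Gpr183 was the most even marker across libraries, at 665, 730, 562 and 703 CPM against 390, 357, 295 and 290 CPM.

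**Figure D1:**
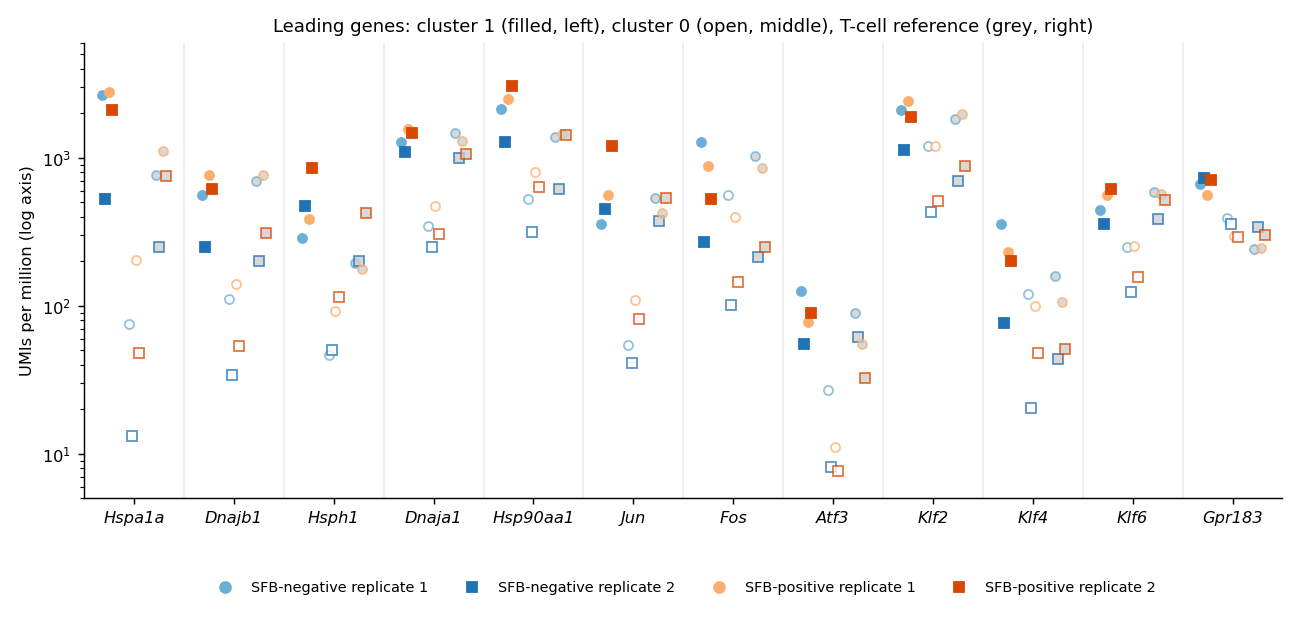
CPM on a log axis for 12 leading genes in each of the 4 libraries (colour and shape), with cluster 1 as filled points, cluster 0 as open points and T-cell reference barcodes as grey points. Cluster 1 lies above cluster 0 in every library for each gene, from about 4.89 on the log2 scale for Hspa1a to 1.00 for Gpr183, while the T-cell reference is close to cluster 1 for Dnaja1, Jun and Klf6.

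The same genes were high in T cells of the same suspensions. A T-cell reference was taken from barcodes outside the table (2 or more UMIs of T cell receptor or CD3 genes and none of a small set of B cell genes that includes Cd79a, Cd79b and Ms4a1), with 234, 784, 250 and 984 cells. Hspa1a was at 762, 248, 1116 and 754 CPM there, between cluster 0 and cluster 1 in each library, and Jun was at 535, 373, 427 and 536 CPM. The order of the libraries for Hspa1a, with SFB-negative replicate 2 lowest and SFB-positive replicate 1 highest, was the same in both cell populations. The tissue digestion was common to all libraries, and its part in these levels was not tested.

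Shares of cells gave the same picture at matched depth. After thinning to 1000 UMIs, 36.9, 27, 55.2 and 57.0% of cluster 1 cells held at least 1 Hspa1a UMI, against 5.1, 1.2, 8.5 and 2.9% of cluster 0 cells, whose median UMIs per cell before thinning (1209, 2962, 1212 and 5249) were close to those of cluster 1. The Jun shares were 24.8, 30.8, 31.3 and 55.6% against 5.0, 3.0, 8.9 and 6.0%. Klf2 was found in 73.0, 57.5, 76.4 and 71.7% of cluster 1 cells and in 54.7, 30.6, 55.3 and 35.2% of cluster 0 cells. Thinning left out 175, 3, 189 and 0 cluster 1 cells of fewer UMIs, and unthinned Hspa1a shares were 41.8, 42.7, 58.3 and 77.2%.

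Of the 15 listed heat shock genes of at least 20 CPM, 13 were higher in cluster 1 than in cluster 0 in all 4 libraries. Of all genes of that level, 18.3% were. The median log2 difference of the 15 was 1.81, beside 0.01 over all genes of that level. Hsph1, an HSP110 exchange factor of HSP70, was at 287, 473, 383 and 855 CPM against 46.2, 50.2, 92.4 and 116 CPM. Hsp90aa1, the inducible cytosolic HSP90, was at 2137, 1282, 2502 and 3063 CPM against 525, 316, 799 and 632 CPM. Dnaja1, an HSP40 of the cytosol, differed by 2.0 (log2, SD 0.24), and Hspd1, the mitochondrial chaperonin HSP60, by 1.81 (SD 0.23). The rest, Hspa5 and Hsf1, were not higher in all 4 libraries. Hspa5, the chaperone BiP of the endoplasmic reticulum, differed by 0.16 on the log2 scale and Hsf1, the regulator of the response, by 0.09. Hspa4, one of the 13 counted as higher, differed by 0.12. The constitutive members Hspa8 and Hsp90ab1 differed by 1.64 and 0.99. Cluster 2 of the table was nearer to cluster 1: against it, 9 of the 15 genes were higher in all 4 libraries and 4 lower. Their median log2 difference was 0.69. Of all 5641 genes of that level, 1807 were higher than in cluster 2 and 1593 lower, with a median of 0.06. Hspa1a was at 394, 127, 1014 and 754 CPM in cluster 2, between clusters 0 and 1 in each library.

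Of 16 immediate-early genes, 15 were higher than in cluster 0 in all 4 libraries, beside 18.3% of all genes of at least 20 CPM. Their median log2 difference was 0.89. Atf3, a repressor of the ATF family, was at 126, 55.5, 77.5 and 89.4 CPM against 27, 8.1, 11.2 and 7.7 CPM. Fos was at 1280, 272, 875 and 525 CPM against 562, 101, 396 and 145 CPM, and for this gene the replicate 1 libraries of both clusters stood above the replicate 2 libraries. Dusp1, a phosphatase that turns off MAP kinases, showed the same batch order, at 480, 56.1, 355 and 121 CPM in cluster 1. Fosl2 was the exception, at -0.21 (log2). Summed over the list, cluster 1 held 17027, 5958, 15550 and 9161 CPM and cluster 0 held 10507, 3228, 9651 and 3949 CPM.

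Of 14 quiescence genes, 9 were higher than in cluster 0 in all 4 libraries, beside 18.3% of all genes of at least 20 CPM. The lists share members: Btg2 is also listed as an immediate-early gene, and Klf2 and Btg1 also as naive follicular genes. Klf4 differed by 1.67 (log2), Klf6 by 1.37 and Tsc22d3, the glucocorticoid-induced leucine zipper gene, by 0.65. Foxp1, a repressor that keeps naive B cells resting, differed by -0.01, and Cdkn1b, an inhibitor of cell cycle kinases, by -0.06. Of 14 genes of NF-kB and its feedback, 10 were higher in all 4 libraries, beside the same 18.3%. Nfkbid and Nfkbia, both IkB family members, differed by 1.00 and 0.72, and Tnfaip3 (A20), which ends NF-kB signalling, by 0.83. Against cluster 2, 1 of the 14 was higher and 9 lower in all 4 libraries, at a median log2 difference of -0.42. Of all 5641 genes of at least 20 CPM, 1807 were higher than in cluster 2 and 1593 lower. Among the other genes ranked against cluster 0 were Pmaip1, a pro-apoptotic BH3-only gene, at a log2 difference of 1.89, the chemokine gene Ccl4 at 1.71 and the stress-response gene Gadd45b at 1.71.

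Of 11 positioning genes above 20 CPM, 4 were higher in all 4 libraries (Gpr183, Ccr7, Cxcr5 and Cxcr4), beside 18.3% of all genes of that level. The integrin gene Itga4 was lower, at -0.34 (log2). Cxcr4, the receptor for CXCL12, was at 430, 339, 404 and 460 CPM against 348, 149, 272 and 189 CPM. Gpr183 had the largest difference of the list, 1.00 on the log2 scale (SD 0.21). The sphingosine 1-phosphate receptor gene S1pr1, a target of KLF2 that lets lymphocytes leave tissue, differed by 0.33 and was higher in 3 of 4 libraries.

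**Figure D2:**
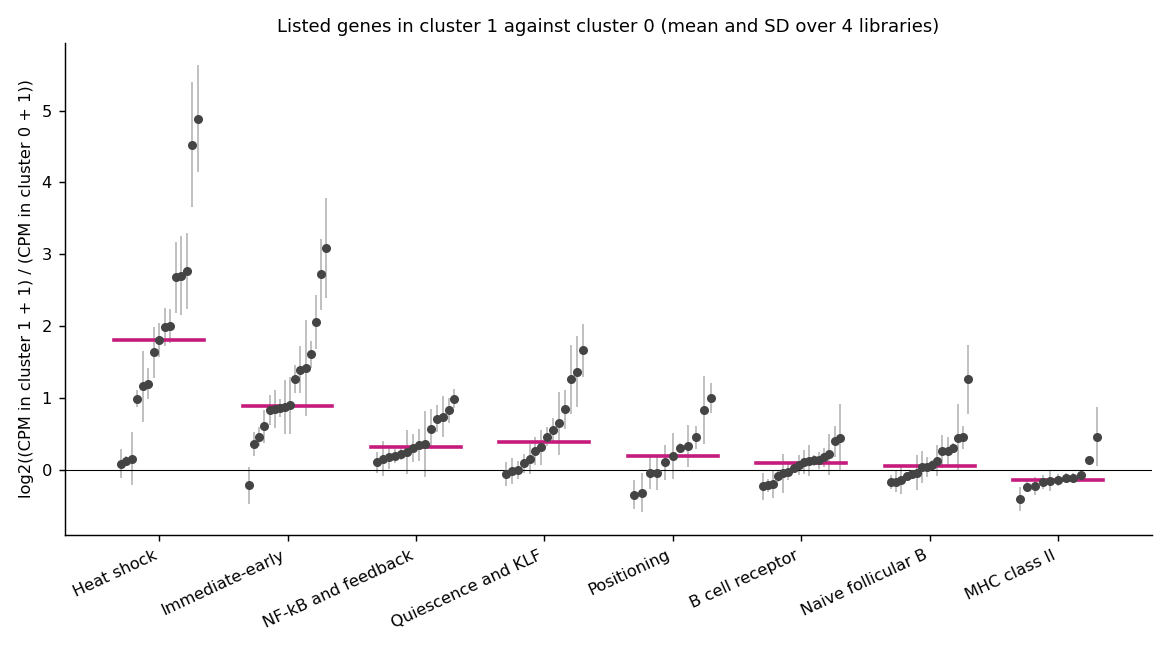
Mean log2 difference between cluster 1 and cluster 0 for the members of 8 gene lists of at least 20 CPM, each point a gene with its SD over 4 libraries, and the pink bar the median of the list. Heat shock genes have a median of 1.81 and immediate-early genes of 0.89, while naive follicular genes lie around 0.06 and MHC class II genes at -0.14.

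Naive and activation markers were set against the cluster's label. Naive follicular genes were at nearly the level of cluster 0, with a median log2 difference of 0.06 over 16 genes. Fcer2a (CD23) was at 444, 265, 323 and 274 CPM against 431, 222, 290 and 182 CPM, and Cr2 (CD21) differed by 0.45. Ighd was lower in all 4 libraries, with a mean log2 difference of -0.16, as were Cd72 and H2-Aa. Some activation genes went the other way: of 13 such genes of at least 20 CPM, 7 were higher than in cluster 0 in all 4 libraries and 2 lower. Of all genes of that level, 18.3% were higher. The lower ones were Nme1 (-0.19 on the log2 scale) and Npm1 (-0.15), while Srm, Cd86 and Ncl differed by 0.10, 0.06 and 0.01. Egr3 and Nr4a1 were also counted with the immediate-early genes above. Myc, a driver of growth and proliferation, was at 227, 114, 201 and 176 CPM against 112, 34.4, 96.7 and 42.0 CPM, a log2 difference of 1.45. Irf4, a factor induced by antigen receptor signals, differed by 0.96, the early activation marker Cd69 by 0.91, Egr3 by 0.90, Nr4a1, a nuclear receptor induced by antigen receptor signals, by 0.88 and Cd83 by 0.80. Against cluster 2 the same 13 genes were higher for 4 and lower for 7 in all 4 libraries, beside 1807 higher and 1593 lower of all 5641. Among germinal centre genes, the receptor gene S1pr2 was at a mean of 0.985 CPM and the proliferation marker Mki67 at 2.39 CPM, while Bcl6, the master regulator of germinal centre B cells, was at 75.1 CPM and higher than in cluster 0 in 3 of 4 libraries. At least 99.3% of cluster 1 cells in each library held a UMI of a B cell gene, and 0, 5, 1 and 4 cells held 2 or more UMIs of T cell receptor genes. Summed over 10 genes each, T cell markers came to 8.94 to 30.6 CPM and epithelial markers to 8.64 to 23.5 CPM, with Cd3d at a mean of 2.15 CPM and Muc2 at 0. Myeloid markers came to 167 to 252 CPM, nearly all of it Cst3 and Tyrobp, with S100a8 and S100a9 at 0, and were lower than in cluster 0 of the same library, which held 204 to 258 CPM. In cluster 1, 3.94, 17.9, 5.91 and 26.4% of cells held 2 or more UMIs of these genes, and in cluster 0 5.38, 18.1, 5.67 and 32.0%. Without Cst3 and Tyrobp it was 0, 4, 0 and 3 cells of cluster 1.

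The genes lower than in cluster 0 made a smaller difference. Below cluster 0 in all 4 libraries were 16.9% of the 5616 genes with a mean of at least 20 CPM in cluster 0. They were led by Sdc1 (-1.20 on the log2 scale, SD 0.64), Cnpy2 (-0.96), Pde4d (-0.82), Tmem108 (-0.74) and Chst12 (-0.70). Sdc1, which encodes syndecan-1 (CD138), was at 11.8, 6.3, 7.8 and 5.3 CPM against 32.6, 8.3, 31.6 and 13.2 CPM. Apoe, the lipid carrier gene, was lower by a steadier margin, at 751, 473, 1123 and 398 CPM against 1225, 778, 1685 and 692 CPM. Plac8, listed here with memory B cell genes, was at 368, 445, 432 and 401 CPM against 595, 625, 822 and 616 CPM, without overlap. Of 11 MHC class II genes, 9 were lower in all 4 libraries, by small amounts such as -0.15 for Cd74, the invariant chain, and -0.40 for H2-Oa, a subunit of the peptide-editing inhibitor H2-O.

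Within the cluster the stress genes varied from cell to cell. At 1000 UMIs per cell, the 16 heat shock genes gave a median of 13, 10, 17 and 17 UMIs in cluster 1 and 5, 4, 6 and 5 UMIs in cluster 0, with 9, 8, 13 and 12 UMIs in cluster 2. The 10th percentile of cluster 1 cells was 6, 4, 9 and 8 such UMIs and the 90th percentile 34, 22, 34 and 34. Above the 90th percentile of cluster 0 in the same library lay 60.2, 65.5, 72.5 and 83.8% of cluster 1 cells, so the distributions overlapped. No Hspa1a or Hspa1b UMI was drawn in 61.7, 67.4, 42.9 and 35.7% of cluster 1 cells. Of the immediate-early genes, cells held a median of 16, 6, 15 and 9 UMIs in cluster 1 and 10, 3, 9 and 4 in cluster 0.

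**Figure D3:**
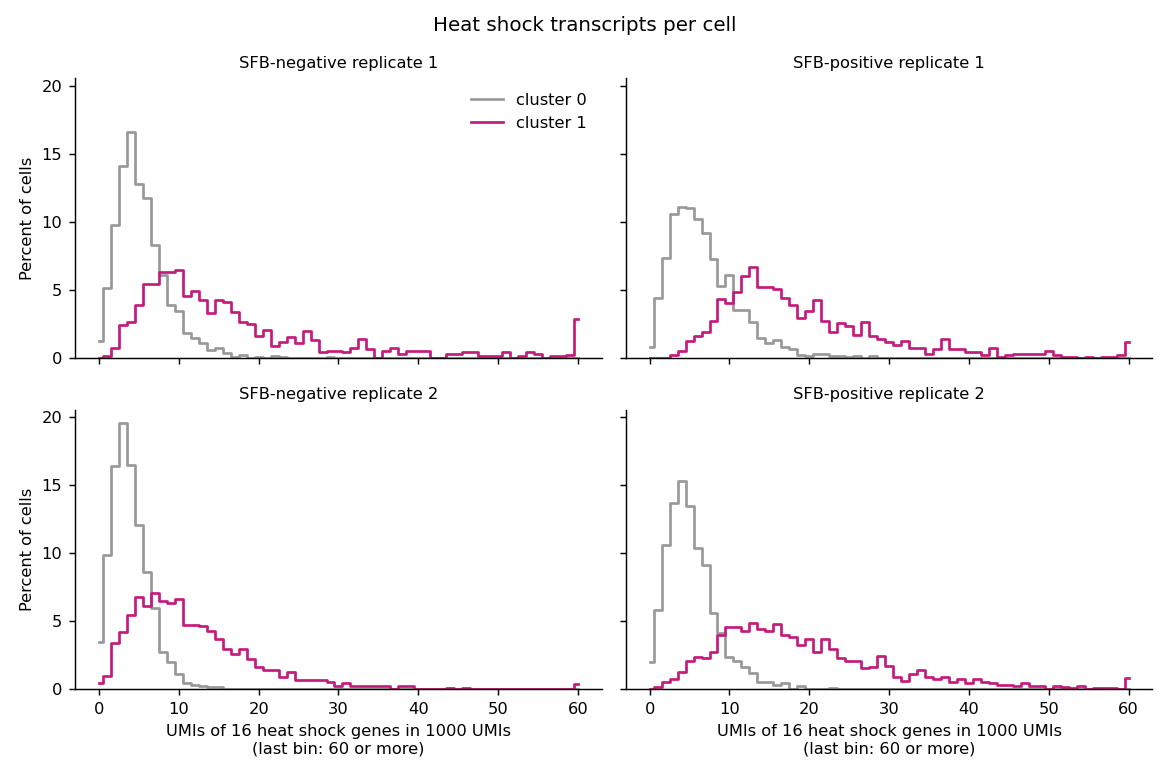
Percent of cells (vertical axis) with each number of UMIs from 16 heat shock genes after thinning to 1000 UMIs (horizontal axis, last bin 60 or more), for cluster 1 (pink) and cluster 0 (grey) in each library. The medians are 13, 10, 17 and 17 UMIs in cluster 1 and 5, 4, 6 and 5 in cluster 0, and the cluster 1 distribution is wide, with a long upper tail.

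Across cluster 1 cells of 1 library, the number of heat shock UMIs and the number of immediate-early UMIs were correlated, with Pearson's r of 0.35, 0.39, 0.33 and 0.39 over 916, 1842, 945 and 2703 cells. In cluster 0 the same r was 0.03, 0.08, 0.12 and 0.08, in cluster 4 it was 0.24, 0.36, 0.20 and 0.36, and in the T-cell reference 0.54, 0.50, 0.35 and 0.48. The cells of a library share its preparation and depth, and the clustering read these genes, so these values are descriptions.

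Surface proteins were read by antibody tags in the replicate 1 libraries only, with 1 library per group and no test. Of the tags reported here, CD45R (B220) averaged 4.47 and 4.25 UMIs per cell in clusters 1 and 0 of the SFB-negative library, and 2.65 and 2.73 UMIs in those of the SFB-positive one. IgD averaged 16 and 14.9, then 10.6 and 11.5, and CD38 averaged 35 and 31.1, then 18.7 and 22.5. IgD and CD38 are both carried by naive mouse B cells. The T-cell reference also averaged 7.68 and 5.31 UMIs for IgD and 15.7 and 8.22 for CD38, in the SFB-negative and SFB-positive libraries. Cluster 3 averaged 41.4 and 14.3 for CD38, so these means alone do not mark naive cells. Medians for IgD were 9 and 6 in cluster 1 and 1 and 1 in the T-cell reference. For CD38 they were 20 and 13 in cluster 1, 6 and 4 in cluster 3, and 3 and 2 in the reference. The tag for IgM averaged 0.697 and 0.59 UMIs per cell, then 0.333 and 0.539, so that cluster 1 was the higher in 1 library and the lower in the other. In cluster 1 of the SFB-positive library it lay below the rat IgG1 and IgG2a isotype controls, at 0.372 and 0.425 UMIs. The order of the clusters for IgM is therefore uncertain. The rat isotype controls averaged 0.07 to 0.43 UMIs in cluster 1, and the tag for CD26 had no count in any cell of clusters 1 and 0.

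**Figure D4:**
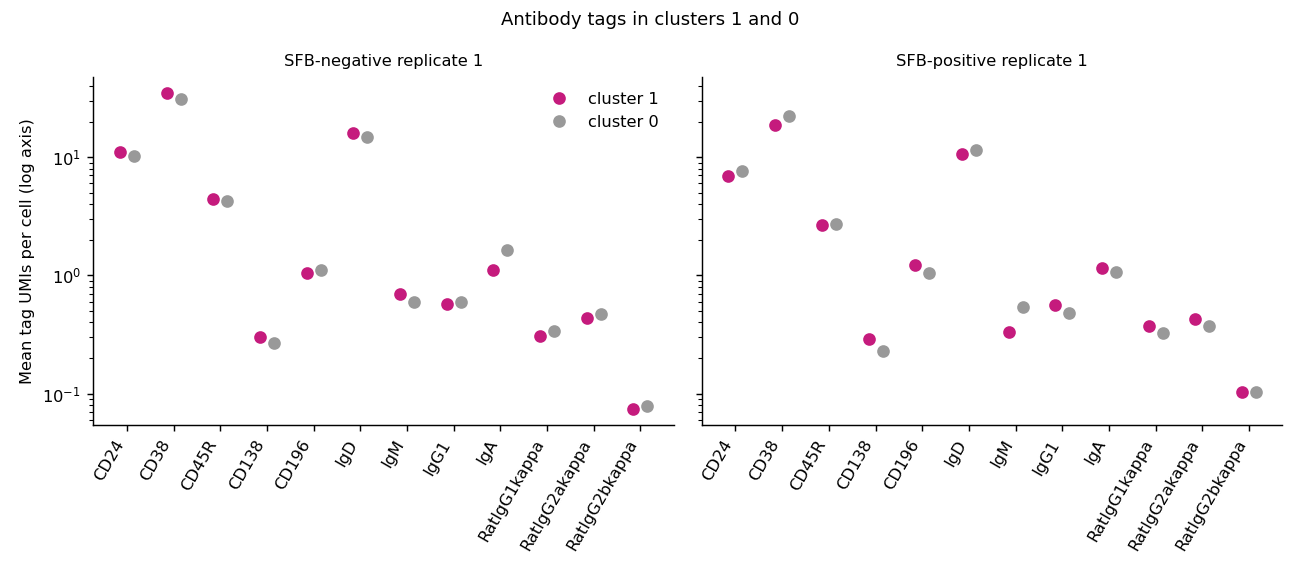
Mean antibody tag UMIs per cell on a log axis for 12 tags in cluster 1 (pink) and cluster 0 (grey) of the replicate 1 libraries, including 3 rat isotype controls. For CD45R the clusters are at 4.47 and 4.25 in the SFB-negative library, and the isotype controls lie below 0.5.

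The immunoglobulin transcripts of cluster 1 were those of unswitched cells. Of all UMIs of 8 heavy-chain constant genes, Ighm took 78.5, 65.5, 75.1 and 70.4% and Ighd 19.8, 32.9, 21.3 and 26.4%. Igha took 1.37, 0.54, 1.65 and 1.09%. Its level was 58.1, 6.04, 72.9 and 18.1 CPM in cluster 1. In the T-cell reference, which should make no immunoglobulin, it was 53.7, 5.25, 60.6 and 18.7 CPM. Among light chains, the lambda constant genes took 13.2, 31.3, 11.8 and 25.6% in cluster 1 and 11.3, 23.2, 10.8 and 18.1% in cluster 0, higher in cluster 1 in each library and higher in the replicate 2 libraries of both clusters.

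The comparison of SFB-positive with SFB-negative mice asked how this naive-like population differs with the commensal. As designed, with 2 libraries against 2 and no batch term, edgeR's quasi-likelihood test called 0 of 9990 genes at an adjusted p of 0.05 (0%), with 7 genes at an unadjusted p under 0.05. DESeq2 also called 0, with 13 at that unadjusted level. Since the replicate number is also the batch, the fit with the number as a block is given beside it: it called 13 genes higher (0.130% of those tested) and 85 lower (0.851%) in SFB-positive mice. DESeq2 with the block called 5 higher and 2 lower, all 7 among these 98, and the block fit restricted to cells of at most 2500 genes called 1 higher and 8 lower. All genes named below as higher or lower are calls of the block fit, with an adjusted p of 1.00 in the fit as designed, and each standard error is derived from its F statistic.

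The genes higher in SFB-positive cluster 1 were led by Ighg2b, Slc15a2 and Socs3. Socs3, the feedback inhibitor of STAT3 signalling, was at 75.8 and 20.9 CPM in the SFB-negative replicates 1 and 2 and at 186 and 65.3 CPM in the SFB-positive replicates. It was higher within both batches, by 1.28 and 1.60 (log2), while the groups overlapped across batches. The fitted log2 difference was 1.37 (SE 0.23, adjusted p = 0.00228, edgeR with the block). Slc15a2, a transporter of di- and tripeptides, was at 13.7 and 39.2 CPM against 35.8 and 145 CPM, a difference of 1.59 (SE 0.25, adjusted p = 0.00122). Here too each SFB-positive library exceeded its partner, and SFB-negative replicate 2 lay above SFB-positive replicate 1. Both genes moved the same way in the T-cell reference. There Socs3 was at 192 and 57.8 CPM against 248 and 98.0 CPM. Slc15a2 was at 12.8 and 23.1 CPM against 18.4 and 95.4 CPM, with 5 and 7 UMIs in the replicate 1 libraries. Whether these differences exceed those of the T-cell reference was not tested. The interaction test against cluster 0, given below, called neither gene.

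Batf, an AP-1 factor needed for class switching, was at 19.6 and 32.7 CPM against 54.7 and 69.8 CPM, without overlap, with a log2 difference of 1.10 (SE 0.24, adjusted p = 0.0258). Sbno2, a STAT3-induced corepressor, was at 81.7 and 47.4 CPM against 184 and 115 CPM, also without overlap, at 1.12 (SE 0.23, adjusted p = 0.0128). Ptger4, the prostaglandin E2 receptor EP4, differed by 0.96 (adjusted p = 0.0463) and Ccnd2, the D-type cyclin of B cells, by 1.01 (adjusted p = 0.0469), both without overlap. Chaperone genes among the 13 were Hspb1 and Hspa4l. Hspb1 was at 9.80 and 23.4 CPM against 24.1 and 59.0 CPM (1.17, SE 0.25, adjusted p = 0.0203), and Hspa4l, an HSP110 family member, at 20.9 and 18.7 CPM against 28.0 and 70.2 CPM (1.27, SE 0.28, adjusted p = 0.0264). Mfsd6 (1.26), the unnamed gene model Gm15987 (1.24), Abtb2 (1.22) and Mreg (1.10) made up the rest, of which Abtb2 rested on 1 and 5 UMIs in the replicate 1 libraries. Of the 13, 7 did not overlap between groups, while 6.53% of all tested genes had both SFB-positive libraries above both SFB-negative ones. The block fit reads the differences within batches, so the calls and this count draw on the same values. A call does not need a like difference in both batches: 31 of the 85 genes called lower had no UMI in either replicate 1 library.

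**Figure D5:**
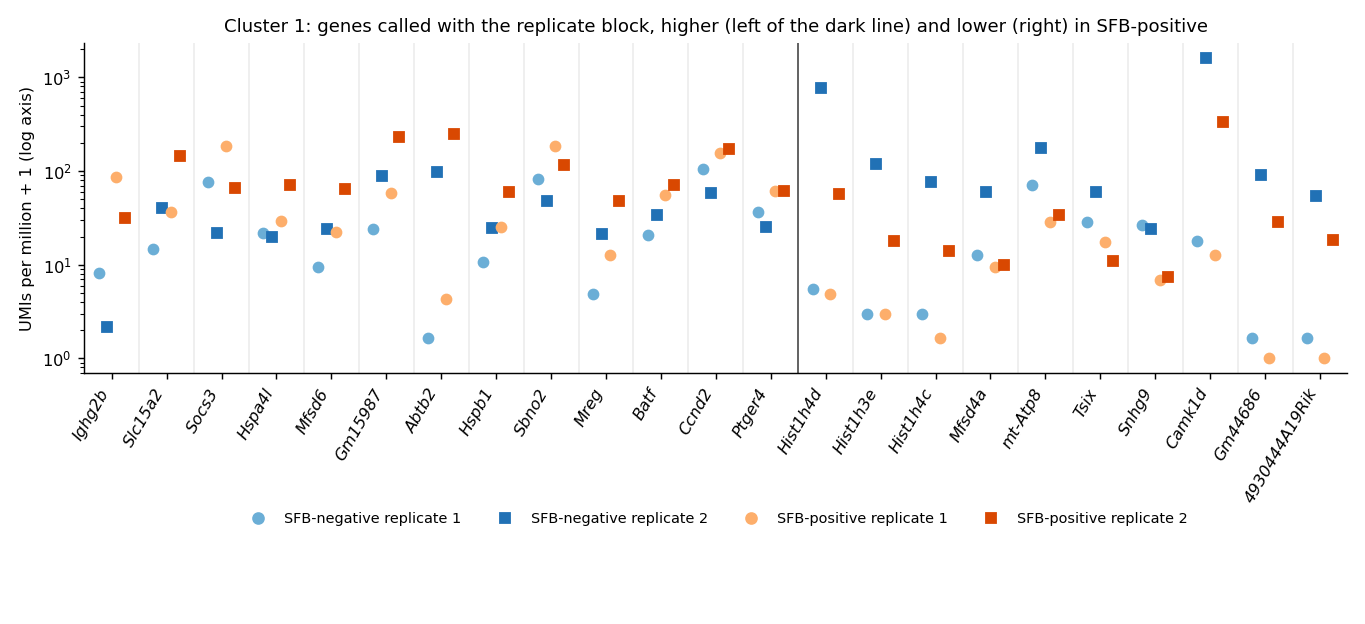
CPM plus 1 on a log axis in cluster 1 of each library for the 13 genes called higher with the replicate block (left of the dark line) and 10 of the 85 called lower (right). Each SFB-positive library exceeds the SFB-negative library of its number on the left, as for Socs3 with 75.8 and 186 CPM and 20.9 and 65.3 CPM, while on the right SFB-negative replicate 2 stands highest for 9 of the 10 genes, Snhg9 being the exception.

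Ighg2b, the constant gene of IgG2b, had the largest difference, at 7.19 and 1.18 CPM against 85.3 and 30.3 CPM, without overlap (log2 4.02, SE 0.32, adjusted p = 8.82e-08). As a share of heavy-chain constant UMIs it came to 0.170 and 0.106% without the commensal and to 1.93 and 1.83% with it, with exact binomial 95% intervals of 0.0847 to 0.303%, 0.0484 to 0.201%, 1.61 to 2.28% and 1.68 to 2.0%, which cover counting error only. The exact two-sided permutation test over libraries gave p = 0.333, the smallest that 2 against 2 allows. T-cell reference barcodes, which should make no immunoglobulin, held 0, 0.7, 52.7 and 18.7 CPM of Ighg2b, so the background moved with the group, and its part in the result was not tested. Single cells held 36 of the 131 UMIs in replicate 1 and 103 of the 504 in replicate 2 of the SFB-positive group. Without the richest cell of each library the difference in shares fell from 1.74 to 1.30 percentage points. Among cluster 1 cells with 2 or more constant UMIs and 1 leading constant gene, that gene was Ighg2b in 1 of 907 and 0 of 1281 cells without the commensal and in 1 of 955 and 5 of 2439 cells with it, so these shares overlapped between groups.

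No heavy chain, Ighg2b included, could pass an exact test at this number of libraries. The Ighm share differed by 0.678 percentage points (exact p = 1.00), with -3.46 within replicate 1 and 4.82 within replicate 2. The Ighd share differed by -2.51 points (exact p = 1.00) and the Igha share by 0.415 (exact p = 0.667). Ighg1, called lower at 3.92 and 9.07 CPM against 2.60 and 2.10 CPM (log2 -2.02, adjusted p = 0.0340 with the block), had a share difference of -0.359 points (exact p = 0.667), and its counts were 6 and 69 against 4 and 35 UMIs. T-cell reference barcodes held 0 and 9.45 CPM of Ighg1 against 5.27 and 0.737 CPM, from 0 and 27 against 2 and 5 UMIs. The part of this background in the call was not tested.

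Of the 85 genes called lower, 78 were highest in SFB-negative replicate 2 and 31 had no UMI in either replicate 1 library. Histone genes made up 11 of them, and 36 were unnamed gene models. Hist1h4d, a replication-dependent histone H4 gene, was at 4.57 and 766 CPM against 3.91 and 55.3 CPM, with 7 and 6 UMIs in the replicate 1 libraries. Camk1d, a calcium-dependent kinase gene, was at 17.0 and 1621 CPM against 11.7 and 330 CPM. Within replicate 1 these differed by -0.18 and -0.50 on the log2 scale and within replicate 2 by -3.77 and -2.29.

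A smaller set fell within both batches. Snhg9, a short small nucleolar RNA host gene, was at 25.5 and 23.0 CPM against 5.86 and 6.36 CPM, without overlap (log2 -2.07, SE 0.27, adjusted p = 0.000149). The mitochondrial gene mt-Atp8 was at 70.6 and 177 CPM against 27.3 and 33.0 CPM (-2.16, adjusted p = 0.000178), and 1 of the other 12 mitochondrial genes, mt-Nd3, was called. Hes1, a Notch target listed here with marginal zone genes, was at 187 and 78.5 CPM against 106 and 32.9 CPM (-1.15, adjusted p = 0.0143). Klf10, which is induced by TGF-beta, was at 46.4 and 20.1 CPM against 22.1 and 9.79 CPM (-1.17, adjusted p = 0.0128). Cd27, a TNF receptor family member, differed by -1.06 (adjusted p = 0.0400) and S100a11 by -0.97 (adjusted p = 0.0378). In all, 25 of the 85 did not overlap between groups, while 4.35% of all tested genes had both SFB-positive libraries below both SFB-negative ones.

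Of the 25 genes that led the cluster, Hspb1 passed the SFB test with the block, and none passed without it. Hspa1a differed by 0.93 (log2, SE 0.38, adjusted p = 0.477 with the block), by 0.07 within replicate 1 and by 1.98 within replicate 2, where SFB-negative replicate 2 was the low library. Jun differed by 0.94 (SE 0.27, adjusted p = 0.123, but 0.0347 with the block and no filter on low counts), Dnajb1 by 0.78 (SE 0.26, adjusted p = 0.254), Klf2 by 0.37 (SE 0.31, adjusted p = 0.868) and Gpr183 by -0.25 (SE 0.26, adjusted p = 0.916). Of 16 heat shock genes, 1 was called higher and none lower, with a median log2 difference of 0.43, beside -0.01 over all 9990 genes. Of the 16 values 13 were positive, beside 4940 of the 9990. None of 16 immediate-early, 14 quiescence, 12 positioning or 16 naive follicular genes was called, with medians of 0.05, 0.28, 0.08 and 0.08. Of 14 cytokine signalling genes Socs3 was called, and of 14 activation genes Batf. None of 11 MHC class II genes was called, at a median of -0.16. Of 14 type I interferon genes none was called, at a median of -0.53 with the block and -0.12 without it.

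Cluster 0 of the same 4 libraries gave SFB differences of its own, 25 genes higher and 204 lower of 10612 with the block. Socs3 differed there by 1.13 (adjusted p = 0.00111), Slc15a2 by 1.53 (adjusted p = 5.45e-06) and Ighg2b by 3.51 (adjusted p = 9.35e-28). Sbno2 differed by 1.03 (adjusted p = 0.00479), Snhg9 by -1.75 (adjusted p = 1.64e-07) and mt-Atp8 by -2.15 (adjusted p = 3.04e-11), close to their cluster 1 values. Batf differed by 0.65 (adjusted p = 0.185), Hspa4l by 0.55 (adjusted p = 0.503) and Hspb1 by 1.39 (adjusted p = 0.107), all in edgeR's block fit of cluster 0. The interaction test of the SFB difference in cluster 1 against that in cluster 0 called 1 of 10720 genes (0.00933%), Airn, with 309 genes at an unadjusted p under 0.05. Batf differed between the clusters by 0.46, Hspa4l by 0.83, Hspa1a by -0.53 and Socs3 by 0.25 (log2), each with an adjusted p of 1.00 in edgeR's interaction test. The SFB differences of the 2 clusters come from the same libraries.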

How the data were processed

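The files hold single-cell RNA counts of CD45+ Peyer's patch cells from 4 libraries. The deposited matrices give raw UMI counts per gene and barcode and, in the replicate 1 libraries, per antibody tag. Cell Ranger 5.0.1 and the mm10 genome are named in the submitters' processing notes, while the file headers name Cell Ranger 6.0.0 and 7.0.0. The authors' deposited table gives each cell's cluster number, UMI and gene counts, the percent of UMIs on mitochondrial genes (all under 10) and layout coordinates, which are scores without a unit and entered no comparison. How the authors filtered, clustered or removed doublets is not given in the sources used here, and no doublet caller was run.

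Cells were joined to the matrices by library and barcode. The UMI total of the table equalled that of the matrix in 66.5 to 81.4% of cluster 1 cells per library and differed by at most 10 UMIs in the others. UMIs were summed per library and cluster and tested with edgeR 4.0.16 in R 4.3.3 (quasi-likelihood, robust, TMM, filterByExpr, Benjamini-Hochberg limit 0.05), without a block as designed, with the replicate number as a block, and as an interaction with cluster 0; DESeq2 1.42.0 was the alternative tool. The deviations of same-numbered libraries from their group means correlated at 0.865 over 9990 genes, and the numbers coincide with the Cell Ranger version and the antibody tags. CPM is UMIs per 1000000 UMIs of the class, and log2 differences of CPM carry a pseudocount of 1. Leading genes have a mean of at least 20 CPM in cluster 1 and a log2 difference above 0 in all 4 libraries, ranked by its mean. Of these, 25 were listed against the other table cells and 15 against cluster 0. The 15 listed below cluster 0 have a mean of at least 20 CPM in cluster 0 and a difference below 0 in all 4 libraries. SFB genes are named where called, with the same sign in both replicate numbers and at least 10 CPM in the higher group, the 10 largest each way, with calls outside that rule picked after their values were seen: Batf, Ccnd2, Ptger4, Ighg1, mt-Nd3, Hes1, Klf10, Cd27 and S100a11. The test scripts were tested on simulated data. Some genes and 2 antibody tags are not reported here. The members and gene lists were chosen with earlier results of these data known.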

Additional observations from a re-analysis of the deposited data

Results flagged for a closer look

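Airn, a long non-coding RNA gene that overlaps Igf2r on the opposite strand, whose reads can be told from those of Igf2r only by strand (not given in the sources used here), was the single gene whose SFB difference in cluster 1 differed from that in cluster 0 in edgeR's interaction test, by -2.09 on the log2 scale (adjusted p = 0.0235). In cluster 1 it was at 10.8 CPM in SFB-negative replicate 2 and 6.96 CPM in SFB-positive replicate 2, from 82 and 116 UMIs, and in cluster 0 at 4.25 and 12.9 CPM. Both replicate 1 libraries held 0 UMIs of it in cluster 1, so the value rests on 1 library of each group and has no replicate. With RLE size factors the difference was -2.14 (adjusted p = 0.00805). Without SFB-negative replicate 2 it was -0.89 and without SFB-positive replicate 2 -1.21, each with an adjusted p of 1.00, and against cluster 2 in place of cluster 0 it was -0.92 (adjusted p = 1.00).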

How the results depend on the processing

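The count of genes called between SFB groups in cluster 1 depended on the batch term, and the cause was not tested. Without it the count was 0 in the design as fixed, with RLE size factors, with DESeq2 and with no filter on low counts. With the replicate block it was 98, with the replicate block and RLE size factors 129, with the block and no filter 188, with DESeq2 and the block 7, and with the block and cells of at most 2500 genes 9. All 98 were among the 129 and among the 188, and the 7 and the 9 were all among the 98. Leaving out each library in turn, without a block, gave 0 to 2 calls, and for the interaction with cluster 0 the count went from 0 (without SFB-positive replicate 2) to 9 (without SFB-positive replicate 1), against 1 with all libraries. Leaving out a library ties the group to the batch, and depth per cell differs between the batches.

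Differences in heavy-chain shares changed sign for Ighm (-3.46 percentage points) and Ighd (1.48) within replicate number 1, the paired value, and for Igha when cells were counted by their dominant gene (-0.095). Leaving out 1 library moved Ighm from -5.81 to 7.17, Ighd from -9.05 to 4.03, Igha from -0.00063 to 0.83 and Ighg1 from -0.718 to 0.000598. Ighg2b stayed between 1.70 and 1.79. Of 33 genes, those whose unblocked log2 difference changed sign in at least 1 such fit were Hspa1a (-0.19 to 2.19), Klf2 (-0.04 to 0.91), Abtb2 (-3.83 to 7.40), Mreg (-0.05 to 2.80), Hist1h4d (-6.55 to 2.58), Hist1h3e (-4.89 to 2.19), Hist1h4c (-5.79 to 1.75), Camk1d (-6.06 to 3.18), Gm44686 (-10.33 to 4.30), 4930444A19Rik (-9.60 to 3.65) and Cd27 (-2.83 to 0.65), which held 12 of the 131 values. None of the 264 values from the other alternatives changed sign. In the fits with the block, the adjusted p of Ighg2b was at most 0.00179, while that of Slc15a2 reached 0.0559 and that of Socs3 0.0714. Of the 28 named genes called with the block, Ighg2b alone kept its call in every fit with the block that tested it, and 19 reached an adjusted p above 0.5 in at least 1 of them, such as Batf (0.924), Abtb2 (0.981), Hspb1 and Hspa4l (both 1.00). Jun passed the limit with the block and RLE size factors (0.0496) and with the block and no filter (0.0347).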
